A study of Homo sapiens with 6 samples.

Results

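The genes described here are those of MHC class II antigen presentation: HLA-DRA, HLA-DPA1, HLA-DPB1, HLA-DMA, HLA-DMB, HLA-DOA and HLA-DOB, with the invariant chain CD74 and the transactivator CIITA. Every probe set annotated to 1 of these 9 genes was taken, which gave 22 of the 54675 probe sets on the array and 9 of the 19775 genes named there. None of the 22 was annotated to a second gene, so 0 were shared. The number per gene was 5 for HLA-DOA, 3 each for CIITA, CD74 and HLA-DPA1, 2 each for HLA-DRA, HLA-DPB1 and HLA-DOB, and 1 each for HLA-DMA and HLA-DMB.

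Class II molecules are pairs of an alpha and a beta chain that present peptides from the endosomal pathway to CD4+ T cells. The invariant chain CD74 accompanies new pairs to the endosome, where cathepsins cut it down to a fragment that HLA-DM removes and HLA-DO keeps HLA-DM from removing. CIITA is the coactivator that switches these genes on, by binding a complex of RFX, CREB and NF-Y proteins on their promoters. B cells express class II constitutively, and the plasma cell regulator PRDM1 silences CIITA when they become antibody-secreting plasma cells.

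The RNA came from OPM2, ARP1 and OCI-MY5, established human lines of multiple myeloma, a cancer of plasma cells. All were grown in RPMI-1640 with serum and antibiotics and were sorted with an antibody against the surface glycoprotein CD24. The CD24+ fractions, described by the submitters as cancer stem cells, were set against the CD24- fractions, and each line gave 1 Affymetrix U133 Plus 2.0 array per fraction, 6 in all. No label speaks of repeated cultures, so p-values measure the spread between these arrays, which may be technical. Values are MAS5 intensities on a linear scale, and all differences below are on the scale log2(intensity + 16), which understates changes of dim probe sets.

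Markers of the labelled cell type were present: 11 or 12 of 12 plasma cell markers exceeded, on each array, the highest reading of the TrpnX control probe sets. Those 3 probe sets match a bacterial gene and read 2.23 to 96.4 over the arrays, and readings in that range are called dim here. Of 9 B cell markers, 0 to 6 exceeded it, with the 6 on the OPM2 CD24+ array. That array stood apart, with a median intensity of 135 against 69.0 to 84.2 on the other arrays and a spike-in level of 37362 against 6175 to 7400. Its 3′ to 5′ ratio of ACTB, a measure of RNA integrity, was 27.1, and the other arrays had 2.47 to 23.2. The 6 CD24 probe sets read 1.69 to 140 over all arrays, with a median of 29.8.

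The promoters of 3 genes are shown because HLA-DMA and HLA-DPB1 were lower in OPM2 and HLA-DMB, which pairs with HLA-DMA, did not pass that test. Each is the 120 bases before the gene's start in RefSeq on GRCh38.p14, and capitals mark matches to the X box (searched as AG, 2 free bases, AC, 2 free bases, ATG) or the Y box (ATTGG or CCAAT), on either strand. The HLA-DMA stretch is chr6:32953098-32953217 on the minus strand, that of HLA-DMB chr6:32941029-32941148 on the minus strand and that of HLA-DPB1 chr6:33075870-33075989 on the plus strand.
HLA-DMA: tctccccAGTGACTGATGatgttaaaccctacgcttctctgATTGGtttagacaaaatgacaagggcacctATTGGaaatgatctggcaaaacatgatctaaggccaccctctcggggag
HLA-DMB: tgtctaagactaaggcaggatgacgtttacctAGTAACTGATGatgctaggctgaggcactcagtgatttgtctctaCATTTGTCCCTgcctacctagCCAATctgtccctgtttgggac
HLA-DPB1: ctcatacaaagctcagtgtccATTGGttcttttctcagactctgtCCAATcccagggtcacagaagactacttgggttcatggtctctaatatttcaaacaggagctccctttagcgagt

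The X box is bound by RFX and CREB proteins and the Y box by NF-Y. The promoter table held 8 promoters of 7 of the 9 genes, and none of HLA-DRA or CIITA. In the 250 bases before the start, 2 of the 8 matched the X box, those of HLA-DMA and HLA-DMB, and 6 matched the Y box. Both promoters of HLA-DPA1, a gene also lower in OPM2, matched neither box and are not shown. Among all 35116 promoters of that length, 2.18% matched the X box and 32.0% the Y box. The HLA-DMA promoter alone of the 8 had an X box match followed at 10 to 40 bases by a Y box match on the same strand. This arrangement was found in 0.0513% of all promoters. Such a match is a description of the letters and does not show a site in use. A box that departs from the searched letters would be missed, so a promoter without a match may still hold one.

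The first question was how the class II genes differed between the lines, with both fractions of a line standing as its replicates. OPM2 had far lower signal than both other lines for the peptide-presenting chains HLA-DRA, HLA-DPA1 and HLA-DPB1 and for the peptide editor subunit HLA-DMA. The brightest CIITA probe set was dim in OPM2 but did not pass the test, and CD74 and HLA-DMB, the partner of HLA-DMA, did not pass either. Of the 22 probe sets, 7 were lower in OPM2 than in ARP1 and 0 were higher, at an adjusted p below 0.05 over all 54613 probe sets tested with limma. Of all probe sets, 1.49% were lower and 0.861% higher in that comparison. Against OCI-MY5, 7 of the 22 were again lower and 0 were higher, where 1.18% of all probe sets were lower and 1.0% higher. The median difference of the 22 was -0.38 against ARP1 and -0.59 against OCI-MY5, beside 0.13 and 0.19 over all probe sets. In bulk RNA, fewer cells of a type and less RNA per cell cannot be told apart.

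**Figure D1:**
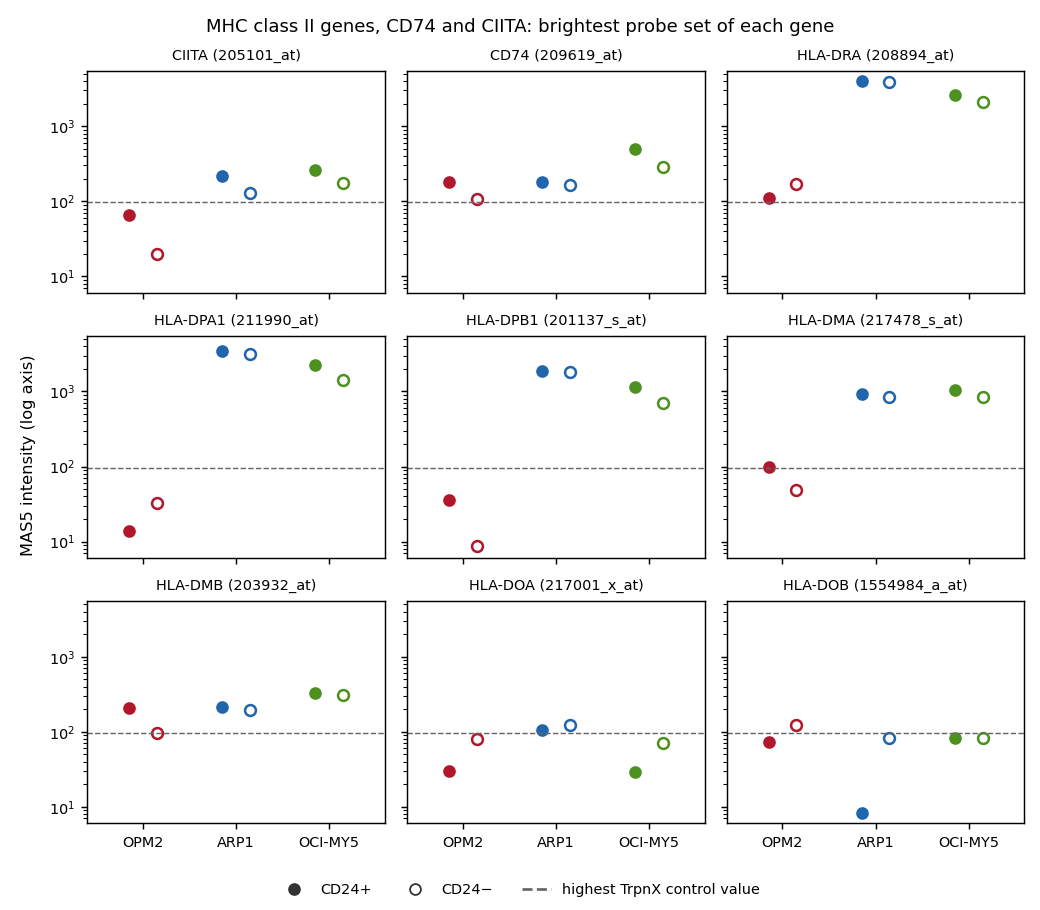
MAS5 intensity (log axis) of the brightest probe set of each of the 9 genes, in 1 panel per gene, for the CD24+ and CD24- arrays of OPM2, ARP1 and OCI-MY5; each point is 1 array and the dashed line is the highest TrpnX reading, 96.4. HLA-DRA, HLA-DPA1, HLA-DPB1 and HLA-DMA are lower on both OPM2 arrays than on every array of the other lines, and HLA-DMB and CD74 are not as far apart.

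CIITA, the transactivator, was read by its brightest probe set, 205101_at, at 65.9 in CD24+ and 19.9 in CD24- cells of OPM2. It read 217 and 127 in ARP1 and 263 and 176 in OCI-MY5, CD24+ first in each. Both OPM2 values were dim and lay below the 4 other values, with no overlap. The difference was -1.75 ± 0.54 (SE, 2 arrays per line) against ARP1, with an adjusted p of 0.174, and -2.09 ± 0.54 against OCI-MY5, with an adjusted p of 0.132, so neither passed. The other probe sets of CIITA gave another order: 210925_at read 229 and 105 in OPM2, 94.8 and 110 in ARP1 and 59.3 and 10.3 in OCI-MY5. The third, 211884_s_at, stayed between 3.16 and 52.7 on all 6 arrays.

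HLA-DRA encodes the alpha chain of HLA-DR. Probe set 208894_at read 111 in CD24+ and 171 in CD24- cells of OPM2, 4039 and 3924 in ARP1, and 2594 and 2121 in OCI-MY5. Both OPM2 values were below those of every other array, and the ARP1 values were above the OCI-MY5 values. The difference was -4.70 ± 0.34 (SE) against ARP1, 25.9-fold lower in OPM2 with an adjusted p of 0.0106, and -3.94 ± 0.34 against OCI-MY5, 15.3-fold lower with an adjusted p of 0.0146. The other HLA-DRA probe set, 210982_s_at, read 8.10 and 10.1 in OPM2, against 1209 and 1588 in ARP1 and 1224 and 1166 in OCI-MY5. Its OPM2 readings lay near the TrpnX median of 9.92, while those of 208894_at lay above the TrpnX range. The differences of 210982_s_at were -5.80 ± 0.31 and -5.59 ± 0.31, with adjusted p of 0.0077 and 0.00743.

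HLA-DPA1 and HLA-DPB1 encode the alpha and beta chains of HLA-DP. HLA-DPA1 (211990_at) read 14.0 in CD24+ and 32.7 in CD24- cells of OPM2, 3431 and 3133 in ARP1, and 2227 and 1419 in OCI-MY5. HLA-DPB1 (201137_s_at) read 36.1 and 8.79 in OPM2, 1862 and 1846 in ARP1, and 1155 and 708 in OCI-MY5. All OPM2 readings of both genes were dim, and the lines did not overlap. The HLA-DPA1 difference was -6.43 ± 0.41 (SE) against ARP1, with an adjusted p of 0.00885, and -5.55 ± 0.41 against OCI-MY5, with an adjusted p of 0.0107. HLA-DPB1 differed by -5.70 ± 0.48 from ARP1 and by -4.68 ± 0.48 from OCI-MY5, with adjusted p of 0.015 and 0.0219. Against dim readings the size depends on the pseudocount and no fold is given: with pseudocounts of 1 and 64 the difference from ARP1 was -7.19 and -5.27 for HLA-DPA1 and -6.60 and -4.49 for HLA-DPB1. HLA-DPB1 did not pass with a pseudocount of 1, with adjusted p of 0.0557 against ARP1 and 0.0713 against OCI-MY5. Both further probe sets of HLA-DPA1 also passed against both lines, with differences of -3.56 and -2.79 for 211991_s_at and of -2.29 and -3.09 for 213537_at. The second HLA-DPB1 probe set, 244485_at, read 5.26 and 4.35 in OPM2, 57.4 and 104 in ARP1, and 4.25 and 8.86 in OCI-MY5. It was the exception among probe sets of these chains, dim on 5 of 6 arrays, with adjusted p of 0.0601 against ARP1 and 0.897 against OCI-MY5.

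HLA-DMA and HLA-DMB form HLA-DM, which exchanges the CD74 fragment for peptides. HLA-DMA (217478_s_at) read 98.1 in CD24+ and 48.2 in CD24- cells of OPM2, 919 and 843 in ARP1, and 1033 and 838 in OCI-MY5. The OPM2 arrays were below all others, and the other lines overlapped. The HLA-DMA difference was -3.39 ± 0.39 (SE) against ARP1, with an adjusted p of 0.0275, and -3.47 ± 0.39 against OCI-MY5, with an adjusted p of 0.0256. Since 1 OPM2 reading of HLA-DMA was dim and the other just above the TrpnX range, no fold is given. With a pseudocount of 1 the adjusted p were 0.0666 and 0.0652, so HLA-DMA did not pass. HLA-DMB (203932_at) read 205 and 96.3 in OPM2, 216 and 195 in ARP1, and 327 and 305 in OCI-MY5. The OPM2 CD24+ value lay between the ARP1 values, so these lines overlapped. That overlap rests on the OPM2 CD24+ array, which had the highest median intensity. The OPM2 CD24- value was dim and lay below those of both other lines. The HLA-DMB differences were -0.49 ± 0.41 with an adjusted p of 0.571 against ARP1 and -1.08 ± 0.41 with an adjusted p of 0.253 against OCI-MY5.

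**Figure D2:**
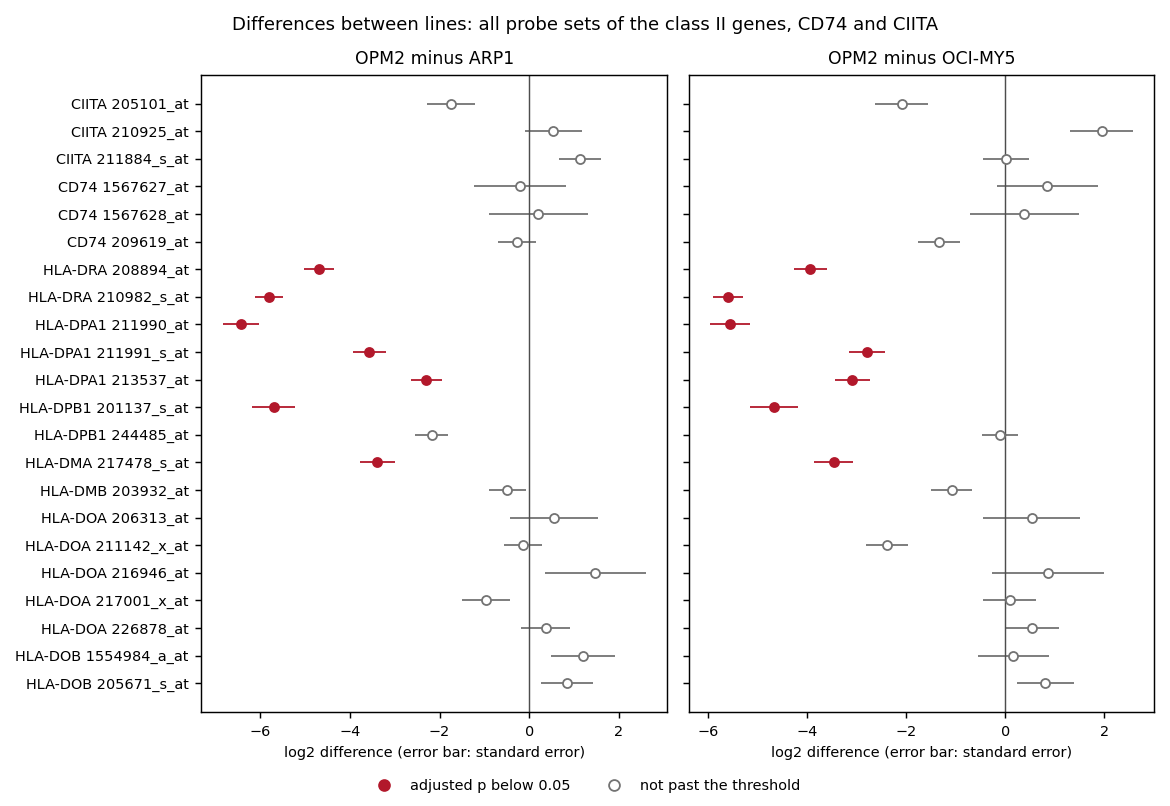
Differences OPM2 minus ARP1 and OPM2 minus OCI-MY5 on the log2(intensity + 16) scale for all 22 probe sets, with bars of 1 SE from the limma fit over 6 arrays; red marks an adjusted p below 0.05. The 7 red probe sets in each comparison belong to HLA-DRA, HLA-DPA1, HLA-DPB1 and HLA-DMA, and all lie below 0.

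CD74, the invariant chain, was read by 209619_at at 178 in CD24+ and 108 in CD24- cells of OPM2, 178 and 166 in ARP1, and 495 and 284 in OCI-MY5. OPM2 and ARP1 overlapped, and both OCI-MY5 arrays were above them. The overlap rests on the OPM2 CD24+ array, which had the highest median intensity, and the OPM2 CD24- value lay below all others. The difference was -0.28 ± 0.42 (SE) against ARP1, with an adjusted p of 0.759, and -1.33 ± 0.42 against OCI-MY5, with an adjusted p of 0.183. The other CD74 probe sets, 1567627_at and 1567628_at, ran from 5.45 to 202 without an order by line.

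HLA-DOA and HLA-DOB form HLA-DO, the inhibitor of HLA-DM, which is found mainly in B cells and thymus. The brightest HLA-DOA probe set, 217001_x_at, read 29.7 in CD24+ and 81.2 in CD24- cells of OPM2, 104 and 124 in ARP1, and 29.1 and 70.7 in OCI-MY5. The brightest HLA-DOB probe set, 1554984_a_at, read 73.0 and 123 in OPM2, 8.24 and 81.6 in ARP1, and 83.4 and 82.7 in OCI-MY5. For HLA-DOB the OPM2 values overlapped those of both other lines, and for HLA-DOA both ARP1 values lay above the rest. None of the 7 probe sets of both genes passed in any comparison of lines. The nearest was HLA-DOA 211142_x_at, at 9.93 and 11.1 in OPM2, against 8.11 and 19.6 in ARP1 and 170 and 88.1 in OCI-MY5. Its difference between OPM2 and OCI-MY5 was -2.39 ± 0.42, with an adjusted p of 0.0659. A probe set name ending in x_at marks probes that may bind related transcripts.

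ARP1 and OCI-MY5 were not told apart on any of these genes. With limma, 0 of the 22 probe sets passed between them, 2 had an unadjusted p below 0.05, and the lowest adjusted p was 0.277. Of all probe sets, 0.00183% passed in that comparison. By their brightest probe sets, HLA-DRA, HLA-DPA1 and HLA-DPB1 were higher on both ARP1 arrays than on both OCI-MY5 arrays. The differences were 0.76 ± 0.34, 0.88 ± 0.41 and 1.02 ± 0.48 (SE). HLA-DPA1 211991_s_at and HLA-DPB1 244485_at had the same order, with 0.77 and 2.07. HLA-DPA1 213537_at had the opposite order, with -0.79 ± 0.35, and HLA-DRA 210982_s_at overlapped, with 0.21 ± 0.31. HLA-DMA differed by -0.08 ± 0.39.

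The calls between OPM2 and the other lines depended on single arrays. With any 1 array of ARP1 or OCI-MY5 left out, 0 of all 54613 probe sets passed against either line, and the adjusted p of HLA-DRA, HLA-DPA1, HLA-DPB1 and HLA-DMA lay between 0.0595 and 0.235. With the OPM2 CD24+ or the OPM2 CD24- array left out, all 4 still passed against both lines, with adjusted p from 0.0379 to 0.0496. OPM2 then has 1 array, which is assumed to vary like those of ARP1 and OCI-MY5. Without the OPM2 CD24+ array, 6 of the 22 probe sets passed against ARP1 and 5 against OCI-MY5. With the CD24 fraction as a covariate, 3 of the 22 probe sets passed against ARP1 and 1 against OCI-MY5, and with a pseudocount of 1, 3 and 4 passed.

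The second question was whether the CD24 fractions differed, which is the comparison the study states. No class II gene passed it: with limma, 0 of the 22 probe sets were called, 0 had an unadjusted p below 0.05, and the lowest unadjusted p was 0.132. The share called among all probe sets was 0.0%, with 1869 of 54613 at an unadjusted p below 0.05. The 22 differences ran from -0.88 to 0.997, 15 above and 7 below 0, with a median of 0.33 beside 0.09 over all probe sets. The SE of the 4 genes that separated the lines was large here, from 1.25 for HLA-DMA to 2.14 for HLA-DPA1, since the groups of 3 arrays each hold all lines.

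Within lines, where each difference comes from 2 arrays and has no test, CIITA (205101_at) was higher in CD24+ cells of every line. The differences were 1.19 in OPM2, 0.70 in ARP1 cells and 0.54 in OCI-MY5, with a mean of 0.81 ± 0.34 (SD, n = 3 lines) and an adjusted p of 1 between the fractions. The second CIITA probe set gave 1.01, -0.19 and 1.52, and the third -0.53, 0.60 and 0.86 in the same order of lines, so they did not share that direction in every line. CD74 (209619_at) was also higher in CD24+ cells of each line, by 0.64 in OPM2, 0.09 in ARP1 cells and 0.77 in OCI-MY5. HLA-DPB1, HLA-DMA and HLA-DMB had the same direction in each line, with differences of 0.01 to 0.13 in ARP1 and 0.10 to 1.07 in the other lines. HLA-DRA had -0.55 in OPM2, 0.04 in ARP1 cells and 0.29 in OCI-MY5. HLA-DPA1 was likewise -0.70 in OPM2, 0.13 in ARP1 cells and 0.64 in OCI-MY5. All these directions are as deposited. Over all probe sets the median difference in OPM2 was 0.25 as deposited and -0.52 after median centring, so signs can change with the scaling.

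HLA-DOA ran the other way on its brightest probe set, with -1.09 in OPM2, -0.22 in ARP1 cells and -0.94 in OCI-MY5, and its probe set 226878_at was also lower in CD24+ cells of each line. In all, 7 of the 22 probe sets were higher in CD24+ cells of all 3 lines, where 17.6% of all probe sets were, and 2 were lower in all 3, where 9.99% were. At a size of at least 2-fold, 7 were higher and 2 lower in OPM2, where 25.5% and 11.4% of all probe sets were. In ARP1, 1 was higher and 4 were lower at that size, beside 11.0% and 10.2% of all probe sets. In OCI-MY5, 3 were higher and 1 was lower, beside 11.6% and 9.77%. The direction counts depend on the scaling: in OPM2, 14 of the 22 were higher as deposited, where 61.3% of all probe sets were, 10 after quantile normalization, and 9 after median centring. As deposited, 11 were higher in ARP1 and 17 in OCI-MY5, beside 51.5% and 52.5% of all probe sets. Quantile normalization gave 11 in ARP1 and 16 in OCI-MY5, and median centring 8 and 14. Shares of all probe sets under these scalings were not counted, and the medians of all probe sets moved too. In OPM2 that median was 0.25 as deposited, 0.001 after quantile normalization and -0.52 after median centring. The 22 had medians of 0.45, -0.08 and -0.33 in that order.

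**Figure D3:**
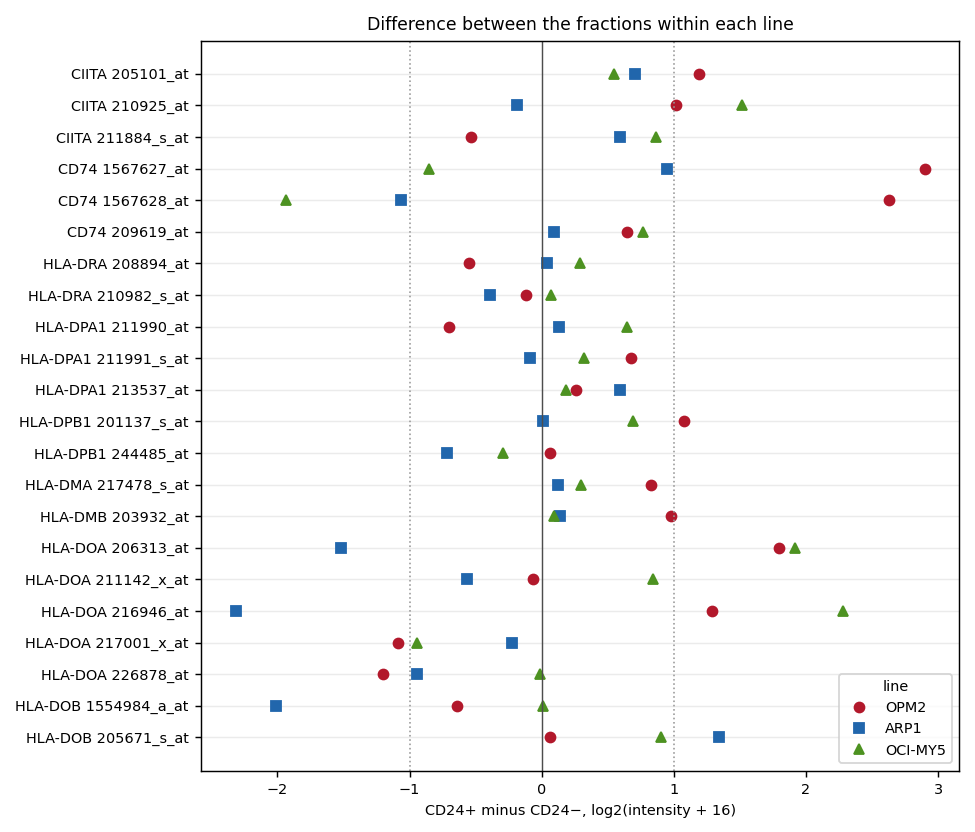
Difference of CD24+ over CD24- cells, in log2(intensity + 16), within OPM2, ARP1 and OCI-MY5 for all 22 probe sets, 1 point per line, each from 2 arrays and without an error bar; dotted lines mark 2-fold. The brightest probe sets of HLA-DRA, HLA-DPA1 and HLA-DPB1 lie at 0.01 to 0.13 in ARP1 and at 0.29 to 0.69 in OCI-MY5, and HLA-DOA 216946_at runs from -2.31 in ARP1 to 2.28 in OCI-MY5.

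The regulators upstream of the class II genes were read from lists chosen beside them. RNA of the complex that CIITA binds was present in OPM2: all 7 genes measured exceeded the TrpnX range on every array. Of these genes, 0 of 7 passed against either line with limma. The proteins and their assembly were not measured. RFX5 read 3342 in CD24+ and 3767 in CD24- cells of OPM2, 4380 and 3978 in ARP1, and 4728 and 4361 in OCI-MY5, differences of -0.23 ± 0.29 and -0.35 ± 0.29 (SE). RFXANK differed by -1.09 ± 0.32 and -1.32 ± 0.32, with adjusted p of 0.158 and 0.116, and NFYA by -1.33 ± 0.33 and -1.34 ± 0.33, with adjusted p of 0.123 and 0.122. CREB1 lay on the other side of 0, with 0.35 ± 0.42 and 0.09 ± 0.42. The median of the 7 genes was -0.23 against ARP1 and -0.35 against OCI-MY5. The interferon-gamma route to CIITA also had 0 of 10 measured genes called against either line. IRF1, an activator of the inducible CIITA promoter, read 472 and 403 in OPM2, 695 and 570 in ARP1, and 1045 and 978 in OCI-MY5, and its adjusted p were 0.424 and 0.129. IFNGR1 differed by 0.44 ± 0.35 from ARP1 and by -0.07 ± 0.35 from OCI-MY5, and the medians of the 10 genes were -0.38 and -0.32.

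Among 10 B cell regulators linked to CIITA, 1 was lower and 1 higher in OPM2 against both lines. PAX5, the factor that keeps B cell identity, read 16.4 and 15.9 in OPM2 by 221969_at, against 370 and 272 in ARP1 and 334 and 421 in OCI-MY5. The OPM2 arrays did not overlap the others, with differences of -3.37 ± 0.32 and -3.60 ± 0.32 and adjusted p of 0.0185 and 0.0158. Another PAX5 probe set, 206802_at, read 180 and 49.4 in OPM2 and 4.25 to 7.11 in the other lines, the opposite order, and did not pass. POU2AF1, a B cell coactivator, read 29408 and 25722 in OPM2, 4702 and 4211 in ARP1, and 1234 and 1308 in OCI-MY5, with differences of 2.62 ± 0.29 and 4.42 ± 0.29 and adjusted p of 0.0246 and 0.00828. Of 8 plasma cell regulators and enzymes of gene silencing listed beside CIITA, 0 passed. PRDM1 read 13598 and 13343 in OPM2, 13697 and 14388 in ARP1, and 16245 and 16585 in OCI-MY5, a high signal on all 6 arrays.

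**Figure D4:**
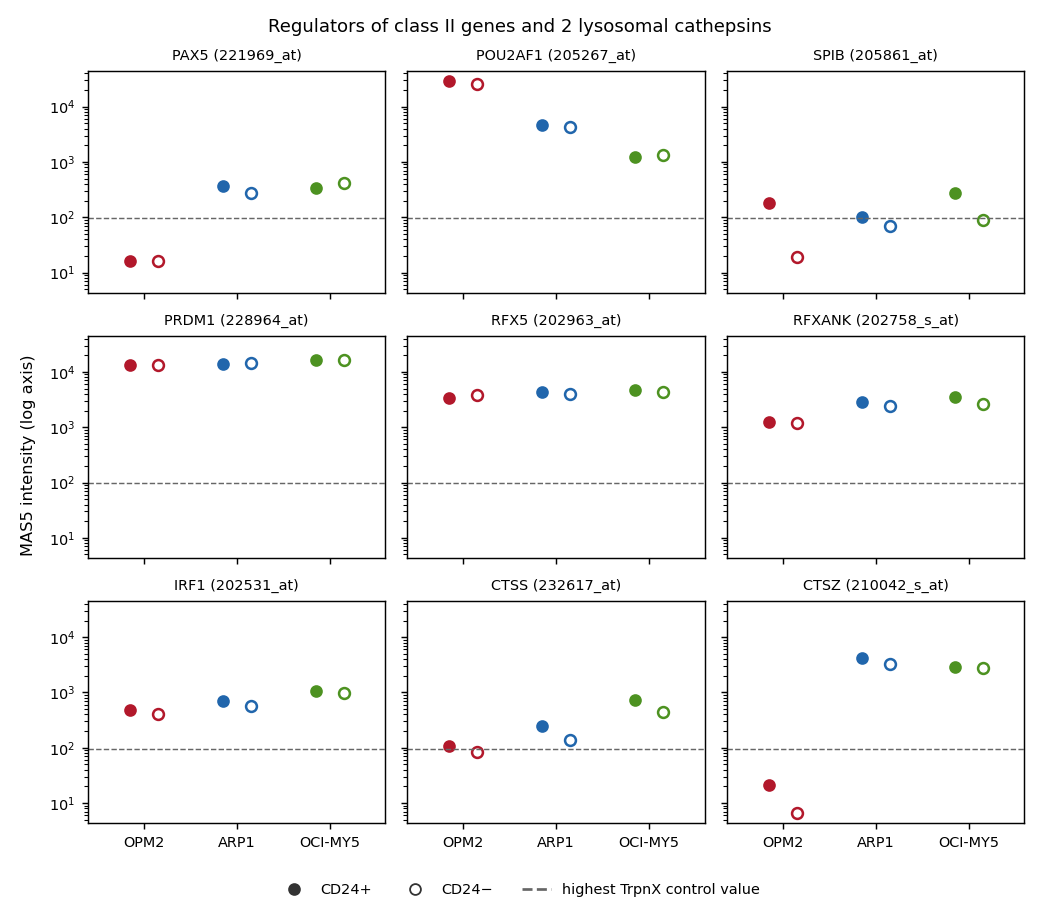
MAS5 intensity (log axis) of the brightest probe set of PAX5, POU2AF1, SPIB, PRDM1, RFX5, RFXANK, IRF1, CTSS and CTSZ by line and fraction. Each point is 1 array, and the dashed line is the highest TrpnX reading. PAX5 and CTSZ are low on both OPM2 arrays, POU2AF1 is highest there, and PRDM1 and RFX5 are near level over the 6 arrays; SPIB and CTSS were drawn after their values were seen.

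The proteases and adaptors that load class II had 1 of 12 measured genes called. It was CTSZ, the lysosomal cathepsin Z, which read 21.2 and 6.58 in OPM2 by 210042_s_at, 4128 and 3218 in ARP1, and 2908 and 2732 in OCI-MY5. The differences were -6.98 ± 0.37 (SE) and -6.61 ± 0.37, with adjusted p of 0.0077 and 0.00743. Its other probe set, 212562_s_at, read 68.3 and 50.7 in OPM2, 96.1 and 153 in ARP1, and 93.1 and 25.0 in OCI-MY5. That probe set did not pass, with adjusted p of 0.462 and 0.898. CTSB and CTSC, cathepsins B and C, were lower in OPM2 on every array without passing, with differences of -0.94 and -1.65 for CTSB and -0.56 and -1.24 for CTSC. LGMN, of the same list, did not share that direction, with differences of 0.88 and 0.05 and adjusted p of 0.244 and 0.952. The median difference of the 12 genes was -0.72 against ARP1 and -0.95 against OCI-MY5. CTSS, the cathepsin that trims CD74 in B cells, read 109 and 83.7 in OPM2, 251 and 141 in ARP1, and 745 and 435 in OCI-MY5, with adjusted p of 0.364 and 0.0737.

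Plasma cell markers also differed between the lines, and their part in the class II differences was not tested. Of the 12, 1 was higher in OPM2 than in ARP1 and 3 than in OCI-MY5, and 0 were lower. SLAMF7, a surface receptor of plasma cells, read 6757 and 6263 in OPM2, 727 and 736 in ARP1, and 257 and 317 in OCI-MY5, with adjusted p of 0.0178 and 0.00833. TNFRSF17, the survival receptor BCMA, was higher by 2.99 than in OCI-MY5, with an adjusted p of 0.0187, and SDC1, the plasma cell proteoglycan CD138, by 2.34 with an adjusted p of 0.0458. Against ARP1 they did not pass, with adjusted p of 0.0792 and 0.162. Another SDC1 probe set, 201286_at, differed by -0.24 from ARP1 and by 1.41 from OCI-MY5. It did not pass against either line, with adjusted p of 0.682 and 0.0836. Of 9 B cell markers, BLK, a B cell kinase, was higher in OPM2 than in ARP1 by 1.96, with an adjusted p of 0.0493, and all its readings were dim.

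Markers of other cell types that carry class II were summed on each array, and their part in the results was not tested. Of 10 monocyte and macrophage markers, 7 in CD24+ and 2 in CD24- cells of OPM2 and 0 or 1 elsewhere exceeded the TrpnX range. The 10 monocyte and macrophage markers summed to 1423 in CD24+ and 462 in CD24- cells of OPM2 and to 329 to 446 elsewhere, and the 7 dendritic cell markers to 590 and 202 in OPM2 and 127 to 281 elsewhere. The B cell marker list summed to 1250 and 658 in OPM2, 819 and 387 in ARP1, and 455 and 608 in OCI-MY5. The highest sum of each of these lists was on the OPM2 CD24+ array, which also had the highest median intensity, 135. Of the T and NK cell list, GNLY read 5215 and 6859 in ARP1, against 119 and 22.5 in OPM2 and 29.9 and 5.51 in OCI-MY5, and the rest of the list was at most 183.

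HLA-DRA was then set against all 19774 other genes by its profile. The measure was the root mean square difference of log2 values over the 6 arrays, after each gene was centred on its mean. Profiles were not scaled, so the size of a difference counted as well as its direction. The 10 nearest were TP53I3 at 0.12, CRYBG1, ANKLE1, LINC00528, MGST2, SYNGR3, LBH, SLC40A1, FOXD1 and PHGDH at 0.31. TP53I3 read 27.9 and 65.3 in OPM2, 1695 and 1587 in ARP1, and 974 and 891 in OCI-MY5. The other class II genes came later: HLA-DPB1 was 121st at 0.64, HLA-DMA 138th at 0.67 and HLA-DPA1 208th at 0.80. CIITA stood at rank 835, HLA-DMB at 3718, CD74 at 4219, HLA-DOA at 4538 and HLA-DOB at 15845. PAX5 was 101st at 0.62 and CTSZ 664th at 1.24. The ranks describe 6 arrays of 3 lines, and nothing on function follows from them.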

How the data were processed

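Per the labels' protocols, total RNA of sorted cells was labelled and hybridised to 1 array per sample. The deposited values are MAS5 intensity, computed by the authors with Affymetrix Expression Console 1.1 per the submitters' processing notes. Trimming 2% of values at each end left a mean of 500.1 on all arrays. The depth of an array is not a count, and the number of arrays limits the precision.

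The 62 control probe sets were left out and 54613 were tested. Gene names came from the platform annotation, matched by Entrez ID to RefSeq genes for 41037 of 41091 probe sets with 1 symbol. Each probe set was tested as log2(intensity + 16) by a two-sided limma fit (version 3.58.1, R 4.3.3, eBayes), adjusted by Benjamini-Hochberg over all probe sets at 0.05 and without a filter. One fit compared CD24+ with CD24- (3 arrays each), another the lines (2 arrays each). The fit was tested on simulated data.

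Numbers in the titles stand for lines. After subtracting the group means, the fractions of a line correlated with r = 0.345 (ARP1), 0.324 (OCI-MY5) and 0.447 (OPM2), while r was -0.304 to 0.049 for unlike lines, so the numbers pair the samples by line. The series text states no pairing, so the block is an alternative.

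All probe sets of the 9 genes are described, and the probe set with the highest mean represents a gene. From 14 other lists the text names genes past the threshold and up to 4 others with the highest mean log2 level; SPIB, CTSS and CD83 were chosen after their values were seen. Of 136 list genes, 6 are not analysed here. The members and lists were chosen with earlier results of these data known. Alternatives were pseudocounts of 1 and 64, a filter on dim probe sets, quantile normalization, median centring, 1 brightest or mean probe set per gene, an intensity trend, the fraction as a covariate, the line as a block, and leaving out each array.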

Additional observations from a re-analysis of the deposited data

Results flagged for a closer look

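For 3 probe sets, CD24+ cells were at least 2-fold above CD24- cells in 1 line and at least 2-fold below them in another, and these differences between lines were not tested because each line has 1 array per fraction. CD74 by 1567628_at gave 2.63 for OPM2, -1.07 for ARP1 and -1.94 for OCI-MY5 (log2), a range of 4.57 between lines. HLA-DOA by 206313_at gave 1.79 for OPM2, -1.52 for ARP1 and 1.92 for OCI-MY5, a range of 3.43. HLA-DOA by 216946_at gave 1.29 for OPM2, -2.31 for ARP1 and 2.28 for OCI-MY5, a range of 4.59. All readings of these probe sets lay between 2.38 and 202, each with 2 of 6 arrays above the TrpnX range, and none of the brightest probe sets of CD74 and HLA-DOA showed opposite signs. At any size, 13 of the 22 probe sets lacked 1 common sign over the lines, among them CD74 1567627_at with 2.90 for OPM2, 0.95 for ARP1 and -0.85 for OCI-MY5. The rest were 7 higher and 2 lower in CD24+ cells of all 3 lines, beside 17.6% and 9.99% of all probe sets. How many of all probe sets had opposite 2-fold differences was not counted, so the flagged probe sets are not shown to be unusual.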

How the results depend on the processing

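HLA-DRA, HLA-DPA1, HLA-DPB1 and HLA-DMA were lower in OPM2 than in both other lines in all 120 values from 15 alternatives, from -7.19 to -2.39, and 78 of the 120 passed the threshold. Counts of called probe sets moved most. Between OPM2 and ARP1 (1283 called) they were 364 with a pseudocount of 1, 3182 with 64, 4237 after a filter on dim probe sets, 5850 with an intensity trend and 180 with the fraction as a covariate. Between OPM2 and OCI-MY5 (1192) they were 379, 3060, 4167, 5628 and 180 in that order, and for any line (991) 77, 3074, 4365, 6946 and 0. Between ARP1 and OCI-MY5 (1) they were 0, 20, 95, 1299 and 0, with 7 after median centring and 0 after quantile normalization and with 1 brightest or mean probe set per gene. Without single arrays the counts ran from 0 to 3150 for OPM2 against ARP1 and from 0 to 3058 against OCI-MY5, and were 0 to 0 for any line, for ARP1 against OCI-MY5 and for the fractions. Median centring moved the median of all probe sets to -0.14 against ARP1 and -0.20 against OCI-MY5, with 306 higher and 920 lower calls (470 and 813 as deposited) and 348 higher and 806 lower (548 and 644). With the cell line as a replicate block, 0 probe sets passed between the fractions and 1 of the 22 had an unadjusted p below 0.05, so the block changed no call.

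Some small differences changed sign. Between the fractions, HLA-DPA1 gave -0.13 with a pseudocount of 1, -0.10 after quantile normalization and -0.31 after median centring. Without single arrays HLA-DRA ran from -1.39 to 1.48, HLA-DPA1 from -1.79 to 2.20, HLA-DPB1 from -1.26 to 2.20, HLA-DMA from -0.83 to 1.46 and HLA-DMB from -0.0026 to 0.76. Between OPM2 and OCI-MY5, HLA-DOA gave -0.093, -0.30 and -0.0717 with quantile normalization, median centring and the mean of probe sets, and HLA-DOB -0.23 under both scalings. Without single arrays these ran from -0.45 to 0.64 and from -0.15 to 0.49, CD74 between OPM2 and ARP1 from -0.60 to 0.0455, and between ARP1 and OCI-MY5 CIITA from -0.69 to 0.0084 and HLA-DMA from -0.23 to 0.069. The mean of probe sets gave 0.26 for HLA-DOA between OPM2 and ARP1, 0.40 for BLK between OPM2 and OCI-MY5, and 0.0625 for CD74 and -0.33 for HLA-DOA between ARP1 and OCI-MY5. The causes were not tested.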

Other observations

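Genes that act on class II after synthesis or beside it were read in the same fits. Of 7 genes of class II ubiquitination and turnover, 0 passed between OPM2 and either other line with limma. CD83, which keeps class II at the surface in dendritic cells and thymus, read 156 in CD24+ and 86.4 in CD24- cells of OPM2, 273 and 380 in ARP1, and 599 and 542 in OCI-MY5. Both OPM2 arrays lay below the others, with differences of -1.35 ± 0.39 (SE) and -2.14 ± 0.39 and adjusted p of 0.159 and 0.071. MARCHF8, a ubiquitin ligase of class II and other surface proteins, read 449 and 509 in OPM2, 399 and 388 in ARP1, and 678 and 602 in OCI-MY5. Of 9 costimulatory genes, 0 passed between OPM2 and either other line. CD40, the receptor for T cell help, read 570 and 259 in OPM2, 212 and 159 in ARP1, and 282 and 267 in OCI-MY5, so OPM2 overlapped OCI-MY5.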
